A study of Mus musculus with 24 samples.

Results

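The 7 genes described here were examined across 24 RNA libraries of mouse embryonic liver, namely *Thy1*, *Sncg*, *Prl3b1*, *Cpa1*, *Cyp4b1*, *Car1* and *Nkx2-3*. These 7 of 25361 genes in the expression table were chosen by name, because their levels in liver sinusoidal endothelial cells (LSECs) that lack both BRG1 and CHD4 differed from those in LSECs that lack CHD4. The study asked how embryos without endothelial *Chd4* escape liver degeneration when endothelial *Brg1* is deleted as well. Cells of E12.5 livers were split into CD146+ cells (LSECs) and the remaining non-EC cells, and each fraction had 4 genotypes with 3 libraries each. Values are TPM, read counts per gene length scaled to the same total in every library, so levels can be set side by side between genes, but the depth behind a value is unknown.

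Controls were Cre-negative littermates. All mutants carried VE-cadherin-Cre. In *Chd4-ECko* embryos *Chd4* was fl/fl and *Brg1* was fl/+, in *Brg1-ECko* embryos *Brg1* was fl/fl and *Chd4* was fl/+, and in the double mutant *Brg1/Chd4-ECdko* each of these genes was fl/fl. Each single mutant thus had 1 floxed allele of the other gene as well. VE-cadherin-Cre deletes floxed exons in endothelial cells and is also active in some blood cells, so the control differs from every mutant group in Cre as well as in the deleted genes. Embryos of both sexes were used on a mixed background. Transcription inhibitors were present during tissue digestion. The labels place all 24 libraries in a single batch, and each library came from 1 embryo, so p-values within a fraction measure the spread between embryos. LSEC and non-EC libraries may share embryos. Fits over all 24 libraries, other than the replicate block, treat them as independent.

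CHD4 is the motor subunit of the NuRD complex, which couples nucleosome remodeling to histone deacetylation and is best known for repressing genes. BRG1, encoded by *Smarca4*, is the motor subunit of SWI/SNF complexes, which move or evict nucleosomes and often open regulatory DNA. The 7 genes have little function in common. *Thy1* encodes a GPI-anchored surface glycoprotein of thymocytes, neurons, fibroblasts and activated endothelium that binds leukocyte integrins. *Sncg* encodes γ-synuclein, a small cytosolic protein of neurons and some epithelia. *Prl3b1* encodes placental lactogen II, a prolactin-family hormone of the placenta. *Cpa1* encodes pancreatic carboxypeptidase A1 and *Cyp4b1* a cytochrome P450 enzyme of lung and other epithelia. *Car1* encodes carbonic anhydrase 1 of red cells and colon. *Nkx2-3* encodes a homeobox transcription factor needed for spleen and gut vasculature, where it is linked to the leukocyte addressin MAdCAM-1.

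The DNA just before the starts of 4 of the genes is shown because it differs strongly in base composition between the gene with the widest range in LSECs (*Car1*) and the gene that moved the opposite way from the others (*Nkx2-3*). The sequences were read from the GRCm39 genome up to the base before the start of the canonical GENCODE transcript, 5′ to 3′ on the strand of the gene, and leave out any annotated exon. They lie at chr3:14843520-14843769 (minus strand) for *Car1*, chr14:34100540-34100789 (minus strand) for *Sncg*, chr6:30638967-30639216 (plus strand) for *Cpa1* and chr19:43600570-43600763 (plus strand) for *Nkx2-3*. The *Car1* window lies inside the annotated span of the gene, whose outer start is at chr3:14873459. The DNA before that outer start was not examined, so the *Car1* values below cover the canonical start only. Capitals mark TATAAA in *Car1*, TGACTCA in *Sncg* and GGGCGG in *Nkx2-3*, each on either strand.
Car1: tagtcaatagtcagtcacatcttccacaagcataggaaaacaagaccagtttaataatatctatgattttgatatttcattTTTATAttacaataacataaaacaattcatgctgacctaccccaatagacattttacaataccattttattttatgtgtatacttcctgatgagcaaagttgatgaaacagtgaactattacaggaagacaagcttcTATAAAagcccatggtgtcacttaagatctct
Sncg: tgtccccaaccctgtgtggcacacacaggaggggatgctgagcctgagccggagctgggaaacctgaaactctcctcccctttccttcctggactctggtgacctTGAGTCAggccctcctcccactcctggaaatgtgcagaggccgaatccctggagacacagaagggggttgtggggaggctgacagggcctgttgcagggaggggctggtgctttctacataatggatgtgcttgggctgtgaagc
Cpa1: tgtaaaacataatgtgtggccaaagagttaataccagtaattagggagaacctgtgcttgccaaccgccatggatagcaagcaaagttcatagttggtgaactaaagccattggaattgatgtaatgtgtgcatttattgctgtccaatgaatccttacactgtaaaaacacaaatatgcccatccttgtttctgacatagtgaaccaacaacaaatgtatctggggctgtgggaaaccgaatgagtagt
Nkx2-3: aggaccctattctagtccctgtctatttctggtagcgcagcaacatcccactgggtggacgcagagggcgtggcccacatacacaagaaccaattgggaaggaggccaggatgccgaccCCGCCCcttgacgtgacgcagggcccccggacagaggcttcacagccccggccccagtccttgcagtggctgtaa

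The window of 250 bases held 0 CG dinucleotides in *Car1* and 14 in *Nkx2-3*. The other 5 genes had between 1 and 5, and the median over the windows of 21618 protein-coding genes was 8. GC content was 31.2% in *Car1*, 59.6% in *Sncg*, 40.0% in *Cpa1* and 60.0% in *Nkx2-3*, against a median of 53.2%. TATAAA was found before *Car1* (32 and 169 bases before the start) and *Prl3b1*, and 11.9% of all windows hold it. TGACTCA, the AP-1 motif, was found only before *Sncg* among the 7 genes (4.0% of all windows), and GGGCGG before *Cyp4b1* and *Nkx2-3* (36.4%). None of the 7 windows held the GATA motifs AGATAA or TGATAA (16.0% of all windows), the ETS motif CCGGAA (12.4%) or the E-boxes CAGATG and CAGCTG (23.1%). The search covered both strands, and these matches describe letters in the windows only. Annotated exon bases were counted with them, 200 in *Thy1*, 118 in *Prl3b1*, 78 in *Cyp4b1* and 56 in *Nkx2-3*. The *Prl3b1* window lies inside the annotated span of its gene, as that of *Car1* does. Those of *Thy1* and *Cyp4b1* reach into the spans of their genes.

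Differences were computed with limma on log2(TPM + 1), for genes with at least 1 TPM in 3 or more libraries of a fraction, and all 7 genes met this in LSECs. A gene was called at an adjusted p under 0.05 with a log2 difference above 1 in size. The contrast that served for the choice, *Brg1/Chd4-ECdko* minus *Chd4-ECko* LSECs, called 5 of 13444 genes (0.0372%). The 7 genes hold ranks 1 to 7 in it by p, and *Cyp4b1* (rank 6) and *Car1* (rank 7) did not reach the threshold. The log2 difference was -1.85 for *Thy1*, -1.42 for *Sncg*, -1.87 for *Prl3b1*, -1.77 for *Cpa1*, -1.26 for *Cyp4b1*, -2.48 for *Car1* and 1.93 for *Nkx2-3*. Thus 6 genes were lower and *Nkx2-3* was higher in the double mutant. The last of the 7, *Car1*, had a standard error of 0.44. Just outside were *Pdcd4* (0.76), *Acat2* (0.72) and *Hmga1b* (4.69, from 0.951 to 47.4 TPM, a gene whose reads may be shared with its near-identical copy *Hmga1*). LSEC values of the genotypes that entered this choice are given below as a description with no test, and so are their differences from control.

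*Thy1* (chr9:43954332-43959880, plus strand) was at 2.82, 3.41 and 2.96 TPM in the 3 control LSEC libraries and at 13.1, 13.6 and 12.4 TPM in *Chd4-ECko*. In *Brg1-ECko* it was at 1.44, 2.03 and 3.70 TPM and in the double mutant at 2.74, 2.90 and 3.03 TPM. The *Chd4-ECko* libraries stood above all others, and the other 3 genotypes overlapped. The mean in *Chd4-ECko* was 4.26 times that of controls (log2 difference 1.79, SE 0.21) and that in the double mutant 0.945 times.

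*Sncg* (chr14:34092231-34100539, minus strand) was the most abundant of the 7 genes in control LSECs. Controls were at 16.9, 12.0 and 13.3 TPM and *Chd4-ECko* at 33.3, 31.4 and 31.4 TPM. *Brg1-ECko* was at 6.45, 8.39 and 8.35 TPM and the double mutant at 9.23, 11.1 and 14.1 TPM. *Chd4-ECko* was highest and *Brg1-ECko* lowest, without overlap with their neighbours, whereas control and double mutant libraries overlapped. The mean ratio of *Chd4-ECko* to control was 2.28 (log2 difference 1.15, SE 0.18).

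*Prl3b1* (chr13:27425830-27433666, plus strand) was at 0.460, 0 and 0.266 TPM in control LSECs. *Chd4-ECko* libraries were at 3.48, 3.95 and 2.30 TPM, *Brg1-ECko* libraries at 0, 0.248 and 0 TPM and double mutant libraries at 0, 0.502 and 0 TPM. It passed the filter on low values through the *Chd4-ECko* libraries alone, and the other 3 genotypes overlapped. The log2 difference of 1.77 (SE 0.24) between *Chd4-ECko* and control rests on the pseudocount of 1 TPM.

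*Cpa1* (chr6:30639217-30645362, plus strand) was at 3.72, 5.45 and 3.13 TPM in control LSECs and at 9.89, 7.51 and 6.29 TPM in *Chd4-ECko*. Values of *Brg1-ECko* were 0.979, 1.92 and 1.82 TPM and the double mutant values 2.28, 1.46 and 1.11 TPM. Both genotypes without *Brg1* lay below every control library and overlapped each other. The mean in *Chd4-ECko* was 1.92 times that of controls and the mean in the double mutant 0.394 times.

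*Cyp4b1* (chr4:115476281-115504999, minus strand) was at 0.878, 1.21 and 1.24 TPM in control LSECs, at 6.54, 7.34 and 4.72 TPM in *Chd4-ECko*, and at 1.76, 1.57 and 2.69 TPM in the double mutant. *Brg1-ECko* had 0.550, 0.388 and 0.661 TPM. No 2 neighbouring genotypes in this order of levels overlapped, from *Chd4-ECko* over double mutant and control to *Brg1-ECko*. The double mutant mean was 1.80 times that of controls and 0.323 times that of *Chd4-ECko*.

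*Car1* (chr3:14831269-14873459, minus strand) was at 1.18, 1.15 and 0.340 TPM in control LSECs. *Chd4-ECko* had 20.2, 58.8 and 18.1 TPM, *Brg1-ECko* 2.14, 1.91 and 0.136 TPM and the double mutant 4.33, 5.57 and 3.01 TPM. Replicate 2 of *Chd4-ECko* stood well above the other 2. The mean was 36.3 times that of controls in *Chd4-ECko* (log2 difference 3.97, SE 0.44, and 3.45 to 4.27 when a library of either group was left out) and 4.83 times in the double mutant, which did not overlap with control.

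*Nkx2-3* (chr19:43600764-43604331, plus strand) did not follow the other genes. It was at 1.63, 3.22 and 2.81 TPM in control LSECs and at 1.83, 2.63 and 2.26 TPM in *Chd4-ECko*, which overlapped. *Brg1-ECko* was higher, at 4.13, 7.40 and 9.54 TPM, and overlapped with the double mutant, at 9.54, 9.96 and 15.1 TPM. The double mutant mean was 4.51 times that of controls, whereas the *Chd4-ECko* mean was 0.878 times (log2 difference -0.11, SE 0.27), so *Nkx2-3* was not a gene with a higher level after *Chd4* loss in these libraries.

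**Figure D1:**
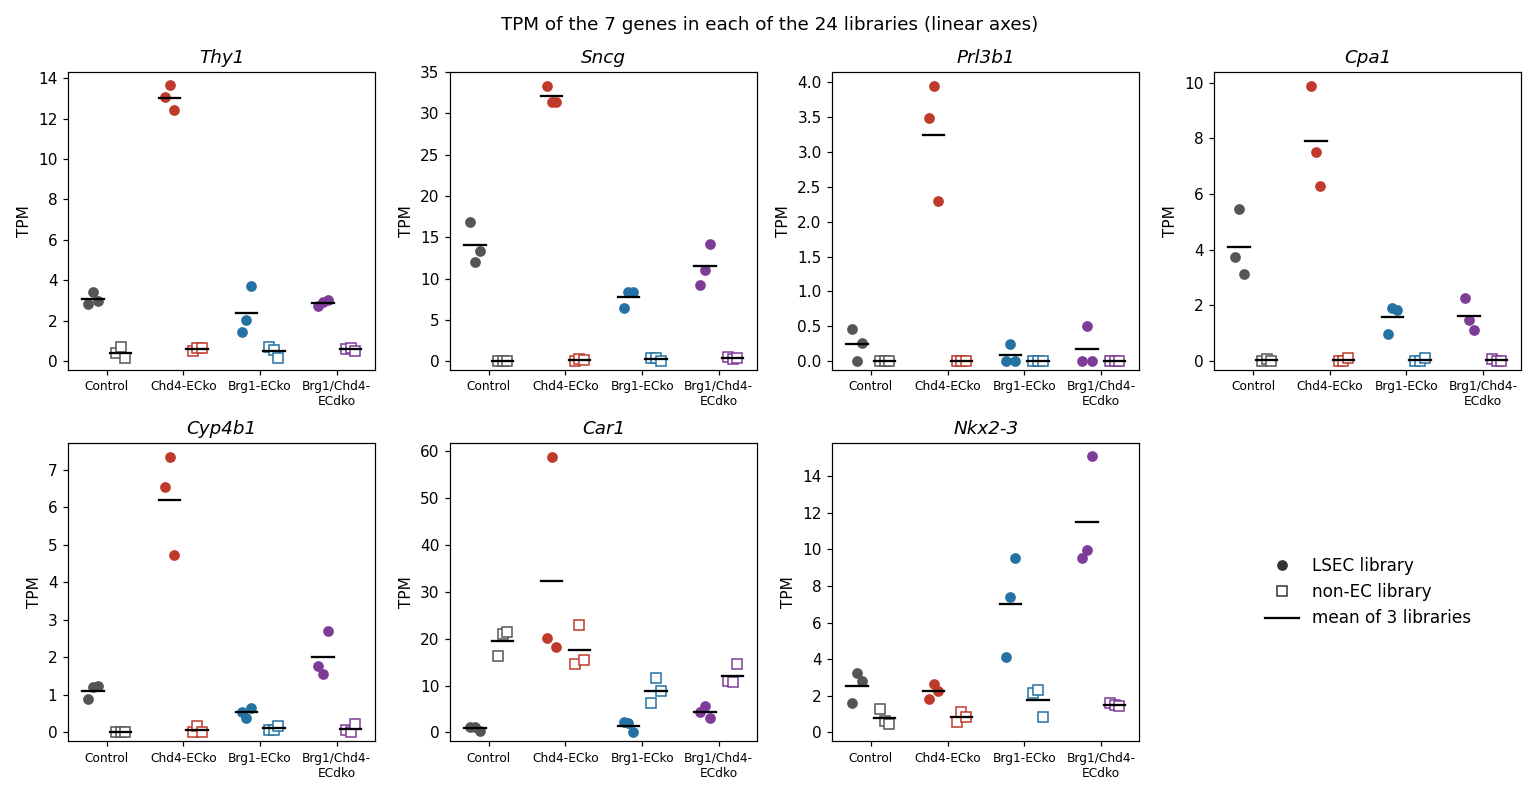
TPM of the 7 genes in each library on linear axes, by genotype, with filled circles for LSECs, open squares for non-EC cells and bars for the mean of 3 libraries. In LSECs 6 genes are highest in *Chd4-ECko* and *Nkx2-3* is highest in *Brg1/Chd4-ECdko*, and in non-EC cells *Car1* alone exceeds 3 TPM.

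Set against control LSECs, the libraries of *Chd4-ECko* did not overlap for 6 of the 7 genes, all higher, in a contrast in which the libraries of 12.3% of tested genes did not overlap in either direction and 0.521% were called. The double mutant libraries did not overlap with control for 4 genes, with *Cyp4b1*, *Car1* and *Nkx2-3* above and *Cpa1* below, where 23.1% of tested genes did not overlap and 0.565% were called. Beside this, the median log2 difference over all tested genes was 0.16 between double mutant and control and 0.01 between *Chd4-ECko* and control, while it was 0.08 between *Brg1-ECko* and control. Because the choice used these libraries, nothing is read from the counts.

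The single mutants and the double mutant can be placed on the same scale. For *Thy1* the log2 differences from control were 1.79 in *Chd4-ECko* and -0.31 in *Brg1-ECko*, which sum to 1.48, while the double mutant was at -0.06. For *Car1* the sum was 4.21 and the double mutant was at 1.49. For *Cpa1* the sum was -0.17 and the double mutant was at -0.96, nearly the value of *Brg1-ECko* alone (-0.98). For *Nkx2-3* the sum was 1.03 and the double mutant was at 1.82. The difference between double mutant and sum was below 0 for 6 genes (-0.64 for *Sncg* to -2.72 for *Car1*) and 0.79 for *Nkx2-3*, and its sign follows in large part from how the genes were chosen. Between the genotypes without *Brg1*, the mean TPM of the double mutant was 1.03 times that of *Brg1-ECko* for *Cpa1*, 1.21 times for *Thy1*, 3.08 times for *Car1* and 3.76 times for *Cyp4b1*.

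**Figure D2:**
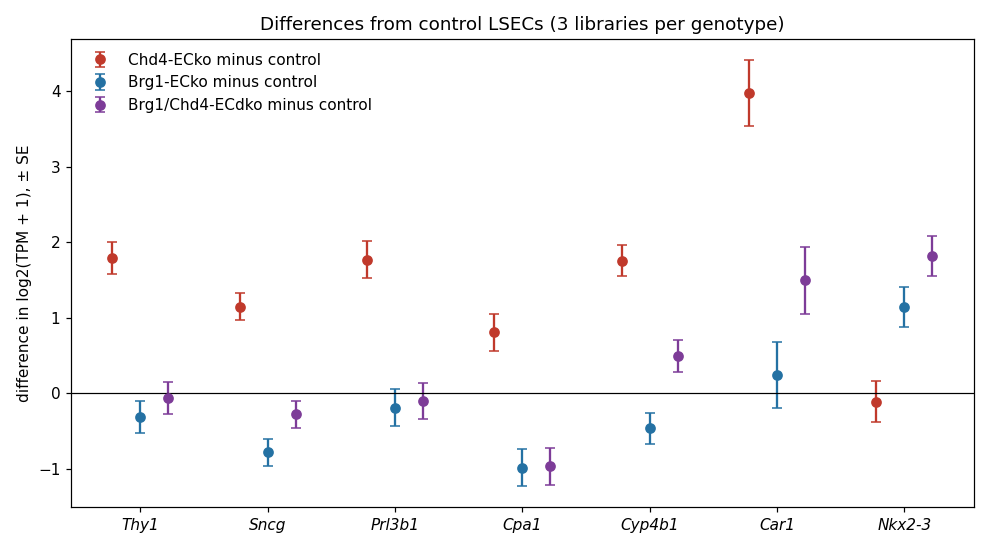
Differences from control LSECs in log2(TPM + 1) with standard errors, for the 3 mutant genotypes (3 libraries each). *Car1* has the largest value in *Chd4-ECko* (3.97), and *Nkx2-3* is near 0 in *Chd4-ECko* and above 1 in both genotypes without *Brg1*.

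The difference between *Brg1-ECko* and control LSECs was not the one used for the choice. Its libraries share 1 estimate of the spread with the genotypes that were, so its p-values are not fully independent of the choice. *Nkx2-3* was higher in all 3 *Brg1-ECko* libraries than in every control LSEC library, with a mean of 7.03 ± 2.72 against 2.55 ± 0.828 TPM (SD, n = 3 each). *Sncg*, *Cpa1* and *Cyp4b1* were lower in all 3, at 0.550, 0.384 and 0.480 times the control mean. *Thy1*, *Prl3b1* and *Car1* overlapped with control. For comparison, 14.6% of tested genes did not overlap. No test is given for *Prl3b1*, which passed the filter through *Chd4-ECko* alone. *Cyp4b1* is given without a test as well, because it passed the filter only with the *Chd4-ECko* and double mutant libraries. None of the other genes was called by limma, in a contrast that called 0.0149% of 13444 genes (2 genes, with 1302 at an unadjusted p under 0.05). The log2 difference of *Nkx2-3* was 1.14 (SE 0.27, limma adjusted p = 0.211), that of *Sncg* -0.78 (SE 0.18, adjusted p = 0.187) and that of *Cpa1* -0.98 (SE 0.24, adjusted p = 0.248). For *Cyp4b1* the log2 difference was -0.46 (SE 0.21). The unadjusted p was 0.000555 for *Sncg*, 0.000849 for *Nkx2-3* and 0.00125 for *Cpa1* in the same limma fit, at ranks 40, 54 and 68 of all tested genes, and 0.00244, 0.00616 and 0.00417 when limma was fitted to the 6 libraries of these groups alone. *Thy1* (-0.31, limma adjusted p = 0.657) and *Car1* (0.24, adjusted p = 0.883) had smaller differences. Cell type markers moved with these values. All 10 endothelial markers were lower in *Brg1-ECko* than in control LSECs (median log2 difference -0.47, sums of 931 to 1479 TPM against 1499 to 1955 TPM) and all 10 hepatoblast markers were higher (median 1.15), none of them called, and their part was not tested. Replicate 1 of *Brg1-ECko* LSECs stood apart, with 28745 TPM summed over 10 hepatoblast genes against at most 8252 TPM in the other 11 LSEC libraries. Without it the log2 difference was 1.43 for *Nkx2-3*, -0.67 for *Sncg* and -0.80 for *Cpa1*, and none of these genes was called.

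In non-EC cells, which did not enter the choice, *Car1* was the only abundant member. Controls had 16.3, 21.1 and 21.3 TPM and *Chd4-ECko* 14.5, 22.9 and 15.5 TPM. *Brg1-ECko* had 6.21, 11.6 and 8.82 TPM and the double mutant 10.9, 10.8 and 14.7 TPM. Both genotypes without *Brg1* lay below all controls, where 39.9% (*Brg1-ECko*) and 24% (double mutant) of tested genes did not overlap with control. *Chd4-ECko* libraries overlapped with the controls. *Car1* fell in *Brg1-ECko* non-EC cells (log2 difference -1.09, SE 0.23, limma adjusted p = 0.0114), where 1.37% of 12223 genes were called. Without replicate 1 of *Brg1-ECko* the difference was -0.88 and the adjusted p was 0.0522 (limma), above the threshold of 0.05. The summed TPM of 10 erythroid genes moved with it, from 1344 to 2398 TPM in control to 779 to 1252 TPM in *Brg1-ECko* non-EC cells, with all 10 lower. Hepatoblast genes were higher in the same libraries, with sums of 26570 to 38468 TPM against 17681 to 19768 TPM. The part of either in the *Car1* result was not tested, and in bulk RNA fewer red cells and less RNA per red cell cannot be told apart. *Car1* differed by -0.16 in *Chd4-ECko* (adjusted p = 0.646, limma, background 0.884% called), by -0.65 in the double mutant (adjusted p = 0.232, background 0.115%) and by -0.49 between double mutant and *Chd4-ECko* (adjusted p = 0.231, background 0%, with 2668 genes at an unadjusted p under 0.05).

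*Nkx2-3* was low in non-EC cells, at 1.30, 0.632 and 0.455 TPM in controls, 0.591, 1.13 and 0.819 TPM in *Chd4-ECko* and 1.61, 1.48 and 1.47 TPM in the double mutant. *Brg1-ECko* had 2.16, 2.32 and 0.827 TPM. The double mutant lay above control and above *Chd4-ECko*, in contrasts where 24% and 18% of tested genes did not overlap, and *Brg1-ECko* overlapped with control. No contrast called it (log2 differences of 0.06 to 0.60, limma adjusted p = 0.133 for *Brg1-ECko* and 0.889 for *Chd4-ECko*). The other 5 genes did not pass the filter in non-EC cells. *Prl3b1* was listed at 0 in all 12 of these libraries, *Sncg* and *Cyp4b1* in all 3 controls. *Thy1* did not exceed 0.708 TPM, *Sncg* 0.520 TPM, *Cyp4b1* 0.216 TPM and *Cpa1* 0.110 TPM. A two-sided exact permutation test of 3 against 3 libraries, run for 16 gene and contrast pairs, gave no p below 0.1, the smallest this design allows (0.533 after Benjamini-Hochberg adjustment).

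The *Brg1-ECko* effect was also compared between fractions by an interaction term over all 24 libraries, which called 0.639% of 13775 genes. *Sncg* was called, but it entered this model through LSECs alone. Its non-EC levels were 0 TPM in the 3 controls and 0.325, 0.360 and 0 TPM in *Brg1-ECko*, too low for a change to show on this scale, against LSEC means of 14.1 TPM in control and 7.73 TPM in *Brg1-ECko*. The interaction therefore largely restates the LSEC difference, which was not called. The interaction value was -1.06 on the log2 scale (SE 0.24, limma adjusted p = 0.0313). The adjusted p ranged from 0.00683 to 0.0881 over 21 alternatives and missed the threshold in 11 of them, among them the block of LSEC and non-EC libraries that share genotype and number (0.0768). *Cpa1* also entered this model through LSECs alone, with at most 0.110 TPM in *Brg1-ECko* non-EC cells. Its interaction value of -0.99 (SE 0.27) is therefore given without a test. *Car1* and *Nkx2-3*, which passed the filter in both fractions, were not called (limma adjusted p = 0.213 and 0.465).

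The resting pattern of the 7 genes was taken from controls. *Thy1*, *Sncg*, *Cpa1* and *Cyp4b1* were higher in LSECs than in non-EC cells and *Car1* was lower, in a contrast that called 32.7% of 13775 genes. The 4 higher genes passed the filter of this model through LSEC libraries alone, so they are given without a test. *Sncg* was at 14.1 ± 2.55 TPM (SD, n = 3) in LSECs and listed at 0 in the 3 non-EC libraries. *Cpa1* was at 4.10 ± 1.21 against 0.0281 ± 0.0487 TPM (log2 difference 2.29), *Thy1* at 3.06 ± 0.308 against 0.410 ± 0.267 TPM (1.54) and *Cyp4b1* at 1.11 ± 0.202 TPM against libraries listed at 0. *Car1* was called, at 0.891 ± 0.477 TPM in LSECs and 19.6 ± 2.80 TPM in non-EC cells (-3.47, limma adjusted p = 9.90e-08). *Nkx2-3* was higher in LSECs (0.98, limma adjusted p = 0.00275) but under the threshold of 1 for the difference. *Prl3b1*, also listed at 0 in non-EC controls, is given without a test. The LSEC fraction was not endothelial alone. All 10 endothelial markers were higher in control LSECs than in non-EC cells, and so were all 10 mesenchymal markers, whose summed TPM was 1374 to 2315 in the 12 LSEC libraries and 29.9 to 122 in the 12 non-EC libraries. Their part in the levels of *Thy1*, *Sncg*, *Cpa1*, *Cyp4b1* and *Nkx2-3* was not tested. Between LSEC genotypes the mesenchymal sums overlapped (1634 to 2201 TPM in control, 1374 to 2315 TPM in *Chd4-ECko*, 1718 to 2252 TPM in *Brg1-ECko* and 1628 to 2311 TPM in the double mutant), and none of these markers was called between them. *Thy1* and *Sncg* are also known from neurons, and of 10 neuronal genes 6 were tested and 4 were called higher in control LSECs than in non-EC cells (*Stmn2*, *Nefl*, *Nefm* and *Gap43*), while none of the 5 tested in LSECs was higher in *Chd4-ECko* than in control (median log2 difference -0.21). Lymphoid markers (2 of 8 tested in LSECs) and mast cell or basophil markers (4 of 7 tested) had no call between LSEC genotypes. The mast cell median was 0.71 between *Chd4-ECko* and control.

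*Car1* is a red cell gene, and erythroid genes were therefore set beside it. In LSECs the 10 erythroid genes summed to 94.0 to 273 TPM in control, 214 to 361 TPM in *Chd4-ECko*, 55.7 to 289 TPM in *Brg1-ECko* and 115 to 208 TPM in the double mutant. All 10 were higher in *Chd4-ECko* than in control, with a median log2 difference of 0.70 and none called, against 3.97 for *Car1*. The 3 embryonic globin genes (*Hbb-bh1*, *Hba-x* and *Hbb-y*) summed to 17.6 to 29.5 TPM in control LSECs, 266 to 1606 TPM in *Chd4-ECko*, 47.6 to 50.5 TPM in *Brg1-ECko* and 261 to 325 TPM in the double mutant, and all 3 were called in *Chd4-ECko* and in the double mutant against control. Replicate 2 of *Chd4-ECko*, with the highest *Car1* (58.8 TPM), also had the highest embryonic globin sum (1606 TPM) but not the highest erythroid sum (226 TPM, against 361 TPM in replicate 3). In non-EC cells the embryonic globin sums were 9.70 to 30.0 TPM in control and 75.7 to 492 TPM in *Chd4-ECko*. They were 12.0 to 30.4 TPM in *Brg1-ECko* and 54.1 to 100 TPM in the double mutant. The part of red cell RNA in the *Car1* values was not tested. Myeloid markers were higher in *Chd4-ECko* LSECs as well, 10 of 10 with a median of 1.11 and 3 called (*Cx3cr1*, *Fcer1g* and *Fcgr3*), and 10 of 10 were higher in the double mutant (median 0.70) and 9 of 10 in *Brg1-ECko* (median 0.59) with none called. In the contrast of the choice, *Brg1/Chd4-ECdko* minus *Chd4-ECko*, all 10 myeloid markers (median -0.44) and all 10 erythroid markers (median -0.48) were lower and all 10 hepatoblast markers were higher (median 0.51), none called. Their part in the levels of the 7 genes was not tested.

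**Figure D3:**
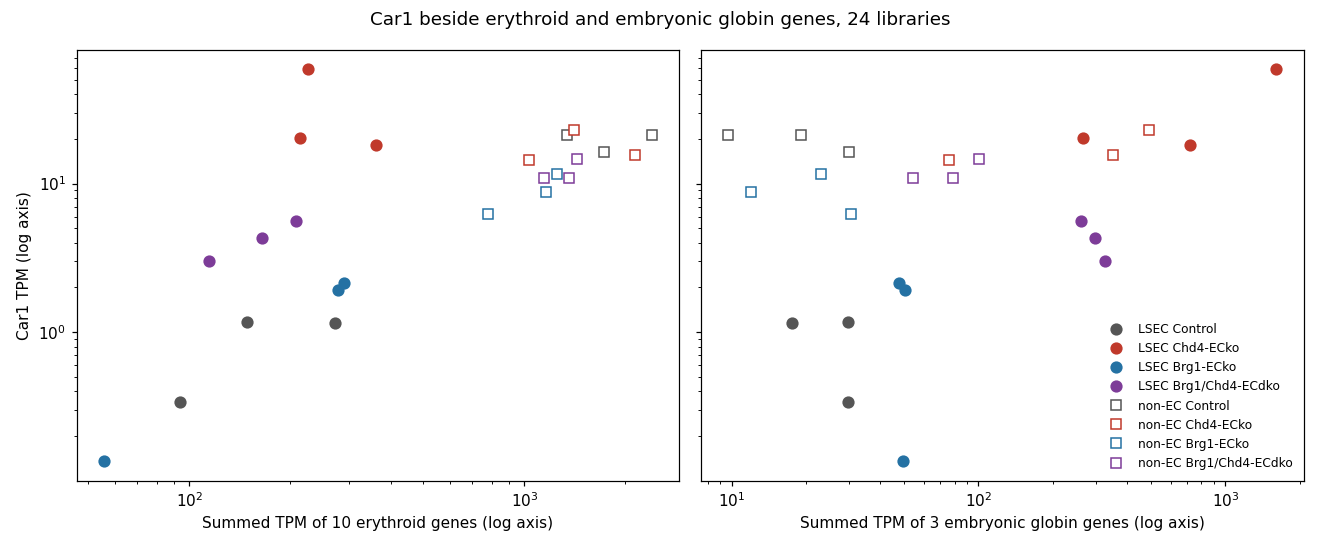
*Car1* TPM against the summed TPM of 10 erythroid genes (left) and 3 embryonic globin genes (right) in the 24 libraries, on log axes, with filled circles for LSECs and open squares for non-EC cells. The 3 *Chd4-ECko* LSEC libraries reach 18.1 to 58.8 TPM of *Car1* at 214 to 361 TPM of erythroid genes, and the 3 control LSEC libraries 0.340 to 1.18 TPM at 94.0 to 273 TPM.

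*Prl3b1* and *Cpa1* are known from placenta and pancreas, so other genes of those tissues were looked up. Of 10 trophoblast markers, 6 were at 0 in all 24 libraries, among them *Prl3d1* and *Tpbpa*, and the highest, *Hand1*, averaged 3.87 TPM in LSECs. Of 12 acinar markers, 6 were at 0 in all 24 libraries, among them *Ptf1a*, *Prss1* and *Cela2a*, and the highest, *Cela1*, averaged 4.41 TPM in control LSECs, 9.58 TPM in *Chd4-ECko*, 6.17 TPM in *Brg1-ECko* and 6.18 TPM in the double mutant (log2 difference of *Chd4-ECko* from control 0.91, limma adjusted p = 0.162). The sum of the acinar markers was 9.55 to 14.9 TPM in *Chd4-ECko*, above the 7.01 to 8.11 TPM of controls, and its part in the *Cpa1* values was not tested. No gene of either list was called between LSEC genotypes. For *Nkx2-3*, a list of spleen and gut mesenchyme genes was led by *Barx1* (50.6 TPM over the 12 LSEC libraries), and *Tlx1* and *Nkx2-5* did not exceed 0.265 TPM. *Madcam1* was at 5.08 TPM in control LSECs, 3.70 TPM in *Chd4-ECko*, 3.22 TPM in *Brg1-ECko* and 6.49 TPM in the double mutant (log2 difference of *Brg1-ECko* from control -0.53, limma adjusted p = 0.610), and was not called where *Nkx2-3* was higher.

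Relatives of the 7 genes were not called between LSEC genotypes. Of 98 genes listed by family or function (among them Thy-1 binding integrins, prolactins, carboxypeptidases, the CYP4 family, carbonic anhydrases and NK homeobox genes), 36 were tested in LSECs. None of them was called in any of the 4 LSEC genotype contrasts, and their median log2 difference was 0.03 in *Chd4-ECko* against control and 0.19 between double mutant and *Chd4-ECko*, beside 0.01 and 0.13 over all tested genes. Between control LSECs and control non-EC cells 19 of 39 tested relatives were called, where 32.7% of all tested genes were. In *Brg1-ECko* non-EC cells 3 of 30 were called (*Sdc4*, *Cpn1* and *Car7*, all higher), beside 1.37% of all tested genes. Of the 26 prolactin-family genes listed, receptor included, 25 were at 0 in all 24 libraries, and the receptor gene *Prlr* did not exceed 0.190 TPM. *Car2*, the carbonic anhydrase with the highest level in LSECs, averaged 124 TPM in controls against 223 TPM for *Chd4-ECko* (0.89, SE 0.37, limma adjusted p = 0.595).

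Genes next to the 7 were examined because remodelers can act over regions. Of 34 genes within 100 kb, 20 were tested in LSECs and 1 was called between genotypes, *Mmrn2*, an endothelial matrix glycoprotein gene, which was lower in *Brg1-ECko* than in control. *Mmrn2* averaged 89.8 TPM in control, 85.4 TPM in *Chd4-ECko*, 41.8 TPM in *Brg1-ECko* and 53.8 TPM in the double mutant, and it overlaps *Sncg* by 3118 bases on the opposite strand, with 314 exonic bases in common. Whether the counting used strand is not stated in the sources used here, so reads from the shared exons may not be assigned to the right gene. The part of shared reads in the *Sncg* values was not tested. *Cyp4a32*, which overlaps *Cyp4b1* on the opposite strand, was at 0 in every library, as were the 5 prolactin genes nearest to *Prl3b1*. The nearest neighbour of *Cpa1* downstream, *Cep41*, was at 7.75 TPM in control and 7.32 TPM in *Chd4-ECko*. *Slc25a28*, 46.1 kb downstream of *Nkx2-3*, was at 19.3 and 24.1 TPM in control and double mutant.

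**Figure D4:**
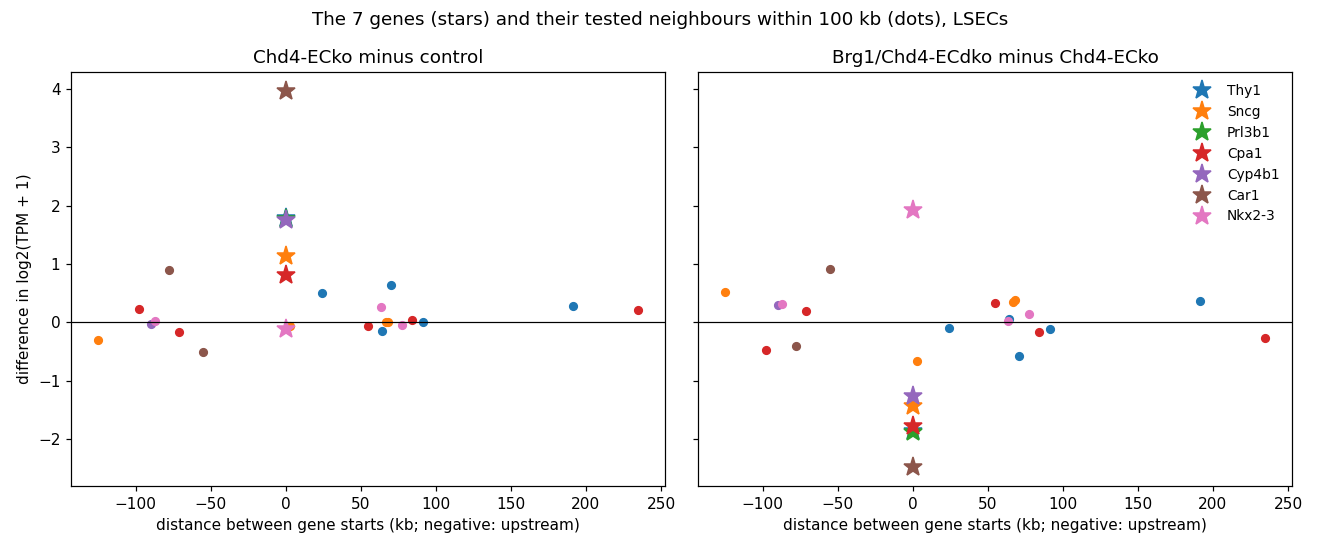
Log2 differences in LSECs for the 7 genes (stars) and their tested neighbours within 100 kb (dots of the same colour) against the distance between outer annotated gene starts in kb, for *Chd4-ECko* minus control (left) and *Brg1/Chd4-ECdko* minus *Chd4-ECko* (right). The neighbours lie between -0.50 and 0.89 on the left (the highest is *Car2*), where 6 stars lie at 0.81 or higher.

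Across the 12 LSEC libraries the 6 genes other than *Nkx2-3* varied together, with Pearson correlations of log2(TPM + 1) of 0.60 to 0.93 over 15 pairs (median 0.86), and *Nkx2-3* had correlations of -0.77 to -0.31 with them. These values describe 12 libraries in 4 genotypes, and the shared genotypes set much of them. Outside the 7, the gene most often among the 3 most alike was *Slc30a2*, a zinc transporter gene, with r = 0.96 to *Thy1*, 0.94 to *Cyp4b1*, 0.91 to *Sncg* and *Prl3b1* and 0.90 to *Car1*. It was low throughout, at 0.294 TPM in control and 1.24 TPM in *Chd4-ECko*. *Icam1*, an adhesion molecule gene of activated endothelium, was among those most like *Sncg* (r = 0.92), at 38.9 TPM in control, 54.1 TPM in *Chd4-ECko*, 32.4 TPM in *Brg1-ECko* and 39.7 TPM in the double mutant. *Cyp4b1* was most like *Apobec2* (0.97) and *Adam23* (0.95), *Car1* most like *Nefh* (0.91), which encodes a neurofilament, and *Cpa1* most like *Ctsl* (0.91). *Nefh*, which was not on the neuronal list above, averaged 1.23 TPM in control, 16.0 TPM in *Chd4-ECko*, 1.85 TPM in *Brg1-ECko* and 8.12 TPM in the double mutant. *Nkx2-3* was most like *Mapk8ip2* (0.94), *Stmn3* (0.92) and *Edn1* (0.92). *Edn1*, which encodes the vasoconstrictor endothelin-1, was at 9.95 TPM in control, 8.86 TPM in *Chd4-ECko*, 15.9 TPM in *Brg1-ECko* and 23.7 TPM in the double mutant.

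The targeted genes do not separate the genotypes in these values. *Chd4* ranged from 168 to 252 TPM in *Chd4-ECko* LSECs and from 246 to 285 TPM in control, and *Smarca4* from 111 to 157 TPM in *Brg1-ECko* LSECs and from 134 to 161 TPM in control. In double mutant LSECs *Chd4* ranged from 242 to 256 TPM and *Smarca4* from 117 to 151 TPM. By qRT-PCR of LYVE1+ LSECs, the paper reports lower *Chd4* and *Brg1* transcripts in the relevant mutants. Whole-gene TPM do not tell transcripts with and without a floxed exon apart, and exon-level reads were not analysed here. Between 11450 and 13219 genes reached 1 TPM per library, and mitochondrial genes took 2.33% to 31.5% of the TPM.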

How the data were processed

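Liver cells from E12.5 mouse embryos were separated with CD146 MicroBeads, and poly-A selected RNA of 24 samples (4 genotypes and 2 fractions, 3 libraries each) was sequenced. Per the study's methods and processing notes, the authors trimmed the reads, mapped them to GRCm39 (mm39) with CLC Genomics Workbench, whose version is not given in the sources used here, and deposited TPM per gene. Total reads per library were not analysed here, so the precision of low values cannot be given. The deposited table also holds 8 columns of group means, which were not used, and 0 columns of other samples. Groups were taken from the sample labels.

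The TPM were transformed to log2(TPM + 1). Genes with at least 1 TPM in 3 or more libraries of a model were fitted with limma 3.58.1 (trended variance, R 4.3.3) in 1 model per fraction, or over all 24 libraries for comparisons between fractions. P-values were adjusted over all tested genes by Benjamini-Hochberg, and fold changes of low genes are understated by the pseudocount. The fits were tested on simulated data. The 7 genes and all gene lists were chosen with earlier results of these data known, and contrasts with *Chd4-ECko* or *Brg1/Chd4-ECdko* LSECs are therefore given without a test for the 7 genes. Named beside the 7 genes are list members that were called or had the highest TPM, neighbours within 100 kb, the 3 most alike genes, the next ranks of the contrast used for the choice, and *Chd4* and *Smarca4*. *Madcam1*, *Tlx1*, *Nkx2-5* and the markers named at 0 were chosen after their values were seen. Some members of the gene lists are not reported here. Deviations from group means were correlated between libraries of different genotypes with the same replicate number. Correlations were -0.043 to 0.39 in LSECs (mean 0.17, 13 of 18 pairs over 0.1). In non-EC cells they were -0.33 to 0.50 (mean 0.13, 10 of 18 pairs over 0.1). Shared structure by number is therefore not excluded. The fits described did not pair genotypes by number, and the replicate block is among the alternatives. LSEC and non-EC libraries of the same genotype and number had correlations of 0.12 to 0.41 in 12 of 12 pairs. Promoter windows were read from the GRCm39 genome with GENCODE annotation, to which 25335 of 25361 genes were matched. The alternatives were another pseudocount, other filters and normalizations, no variance trend, the replicate block, fits of the compared groups alone, no fold threshold, and leaving out each library. Those of the interaction term were added after seeing the data.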

Additional observations from a re-analysis of the deposited data

Results flagged for a closer look

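Effects that differed between LSECs and non-EC cells drew attention for 3 of the genes. For *Sncg*, the *Brg1-ECko* effect in LSECs minus that in non-EC cells was -1.064 on the log2 scale (limma adjusted p = 0.0313, and 0.00683 to 0.0881 over 21 alternatives). *Sncg* was at most 0.360 TPM in the non-EC libraries of these genotypes, so this value largely restates the LSEC difference. For *Car1*, all 3 double mutant LSEC libraries were above every control LSEC library and all 3 double mutant non-EC libraries were below every control, a difference of 2.147 between the log2 differences that was not tested. For *Cyp4b1*, all 3 *Brg1-ECko* LSEC libraries were below control and all 3 non-EC libraries were above control, a difference of -0.603 that is given without a test. Its non-EC levels were 0 TPM in control and 0.0675 to 0.170 TPM in *Brg1-ECko*.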

How the results depend on the processing

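None of the genes was called in *Brg1-ECko* against control LSECs under any of the 15 alternatives, where the limma adjusted p of *Nkx2-3* ranged from 0.0551 (replicate block) to 0.634. Between control LSECs and control non-EC cells, *Car1* was called in the fit described and under all 15 alternatives. *Nkx2-3*, not called there in the fit described, was called under 5 of 14 alternatives. In *Brg1-ECko* against control non-EC cells 1 gene was called, *Car1*, and 0 to 1 with a library left out, with 0 without replicate 1 of *Brg1-ECko*. The replicate block gave 0 calls among the 7 genes in *Brg1-ECko* LSECs and 1 in *Brg1-ECko* non-EC cells, and changed no call of these genes other than *Sncg* in the interaction (adjusted p = 0.0768). The interaction of *Sncg* also missed the threshold without replicate 1 or 3 of control LSECs (0.0870 and 0.0541), replicate 1 of *Brg1-ECko* LSECs (0.0745), replicate 1 or 2 of *Brg1-ECko* non-EC cells (0.0881 and 0.0688), any control non-EC library (0.0535 to 0.0667), with a pseudocount of 0.1 TPM (0.0825) and in a fit of only the 4 groups (0.0532). Of the 278 alternative values of differences from the contrasts behind the choice, 14 moved by more than 1 SD, all with a pseudocount of 0.1 TPM (*Prl3b1* in *Chd4-ECko* against control 3.58 in place of 1.77), and 2 tested differences near 0 changed sign with a library left out, *Car1* in *Brg1-ECko* LSECs (0.24, range -0.022 to 0.71, below 0 without replicate 1 of *Brg1-ECko*) and *Nkx2-3* in *Chd4-ECko* non-EC cells (0.06, range -0.079 to 0.25, below 0 at -0.050 without replicate 2 of *Chd4-ECko* and at -0.079 without replicate 3 of control). Counts over all tested genes were less stable and ranged from 0 to 6 in *Brg1-ECko* LSECs (2 in the fit described), from 28 to 147 in *Chd4-ECko* LSECs (70), from 24 to 133 in double mutant LSECs (76), from 0 to 52 between double mutant and *Chd4-ECko* LSECs (5, and 0 without any 1 of the *Chd4-ECko* libraries), from 31 to 1159 in *Chd4-ECko* non-EC cells (108), from 80 to 1426 in *Brg1-ECko* non-EC cells (167), from 0 to 71 in double mutant non-EC cells (14), from 0 to 861 between double mutant and *Chd4-ECko* non-EC cells (0), from 3222 to 9241 between control fractions (4498) and from 38 to 184 for the interaction (88). The cause was not tested.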
